A study of Mus musculus with 23 samples.

Results

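TRBV16 is a variable segment of the T cell receptor (TCR) beta chain, and 1 of 24 such TRBV segments found in a TCR repertoire study of a mouse melanoma model. RefSeq's mouse annotation gives it the older name Tcrb-V11, hence Vbeta11, and places it between Trbv15 and Trbv17 on chromosome 6. It was chosen by its mean share of beta-chain (TRB) counts, the highest of all segments, so that level is described below and not tested. Its members were taken as all beta-chain entries of the deposited table with V16 as V segment, 4988 of 35571. Entries with an unresolved CDR3 residue were left out (38, holding 0.0343% of its counts), which left 4950 TRBV16 clonotypes of 35389 TRB clonotypes (13.99%). Entries that agree in V, in J and in the amino acids of the CDR3 are 1 clonotype.

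The RNA came from a syngeneic mouse model of melanoma grown from the line NIL, which carries Nras Q61R and had been exposed to ultraviolet radiation, so all groups share both. Control libraries had no drug. The other groups had the MEK inhibitor trametinib, the RAF kinase inhibitor BGB-283, or both (combination), and all 4 treatments were sampled at D4 and D11. There were 23 libraries in 8 groups, with 3 libraries a group except 2 in control D11. The sources used here do not give the strain or age of the mice, or from which event the days run. They also do not say whether libraries of a group are separate animals, and the p-values therefore measure the spread between libraries, which may be technical. The labels name a melanoma cell line as the tissue, while the transcripts read are those of T cells, so each value is a share of whatever T cell RNA the sample held. Fewer T cells carrying a receptor and less receptor RNA per cell cannot be told apart. TRB counts per library ran from 32534 to 320420. The lowest pair were control libraries, D11 replicate 1 (32534) and D4 replicate 1 (34553).

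A beta chain is made by joining a V, a D and a J segment. The CDR3 is the loop that spans this junction and contacts the peptide held by an MHC molecule. The mouse beta locus holds a Dbeta1 segment before the TRBJ1 cluster and a Dbeta2 segment before the TRBJ2 cluster, and Dbeta1 can join either cluster. Vbeta11 is known for its deletion in mouse strains that carry the MHC class II molecule I-E together with superantigens of endogenous mouse mammary tumour viruses. A T cell that divides passes on its receptor, so a clonotype with a high share of counts marks an expanded clone or cells rich in receptor RNA.

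The TRBV16 CDR3 sequences on which the values below turn are shown here as amino acids, from the first conserved C to the last F. They are the largest clonotypes, chosen for a share of at least 5% of TRB counts in some library and numbered by that share. Clones 3 and 6 of this series, with TRBJ2-2 and lengths of 15 and 17 residues, are described by J segment and length alone.
clone 1, TRBJ2-3: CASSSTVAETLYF
clone 2, TRBJ2-5: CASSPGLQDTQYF
clone 4, TRBJ2-7: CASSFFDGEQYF
clone 5, TRBJ2-7: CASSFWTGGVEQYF
clone 7, TRBJ1-4: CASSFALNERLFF
clone 8, TRBJ2-5: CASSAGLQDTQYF
clone 9, TRBJ2-5: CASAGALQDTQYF
clone 10, TRBJ2-7: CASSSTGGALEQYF
clone 11, TRBJ2-5: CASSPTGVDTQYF
clone 12, TRBJ2-7: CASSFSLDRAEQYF

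The CDR3s found in the most libraries are shown beside them because they are shared but, with 2 exceptions given below, small. Public 1 to public 4 were found in 6 libraries each; public 5 is the one with the most counts of the 4 found in 5.
public 1, TRBJ1-2: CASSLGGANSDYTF
public 2, TRBJ1-2: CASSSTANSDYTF
public 3, TRBJ2-7: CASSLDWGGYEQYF
public 4, TRBJ2-3: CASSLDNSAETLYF
public 5, TRBJ1-1: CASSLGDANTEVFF

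TRBV16 took 20.1% ± 12.3 (SD, n = 23) of TRB counts, with libraries from 7.505% to 55.7%. The segments next in order were TRBV3 (11.6% ± 7.57) and TRBV19 (11.03% ± 8.65), and all 3 ranges overlapped. TRBV16 was the most used segment in 10 of 23 libraries, the second in 6, the third in 2, the fourth in 3 and the fifth in 2. Its lead in the mean therefore did not hold library by library. Counted by clonotypes instead, each once, TRBV16 made up 15.5% ± 2.34 (SD, n = 23), followed by TRBV29 at 13.1% ± 2.56 and TRBV19 at 11.4% ± 2.44.

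Control libraries held 8.97%, 35.9% and 19.9% of TRB counts in TRBV16 at D4, and 33.1% and 13.7% at D11. With trametinib the shares were 11.1%, 21.4% and 17.9% at D4, and 22.4%, 19.4% and 12.1% at D11. Trametinib libraries varied least, and all 6 lay inside the control range. BGB-283 libraries held 14.8%, 55.7% and 28.6% at D4, and 8.57%, 16.04% and 44.9% at D11. The highest 2 libraries of the series were thus both treated with BGB-283, one at each day, while another BGB-283 library was among the lowest. Combination libraries held 22.1%, 7.505% and 12.2% at D4, and 8.12%, 17.6% and 9.94% at D11. From high to low, the group means were BGB-283 D4 33.0%, control D11 23.4%, BGB-283 D11 23.2%, control D4 21.6%, trametinib D11 18.0%, trametinib D4 16.8%, combination D4 13.96% and combination D11 11.9%. Each pair of neighbours in that order had overlapping libraries.

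**Figure D1:**
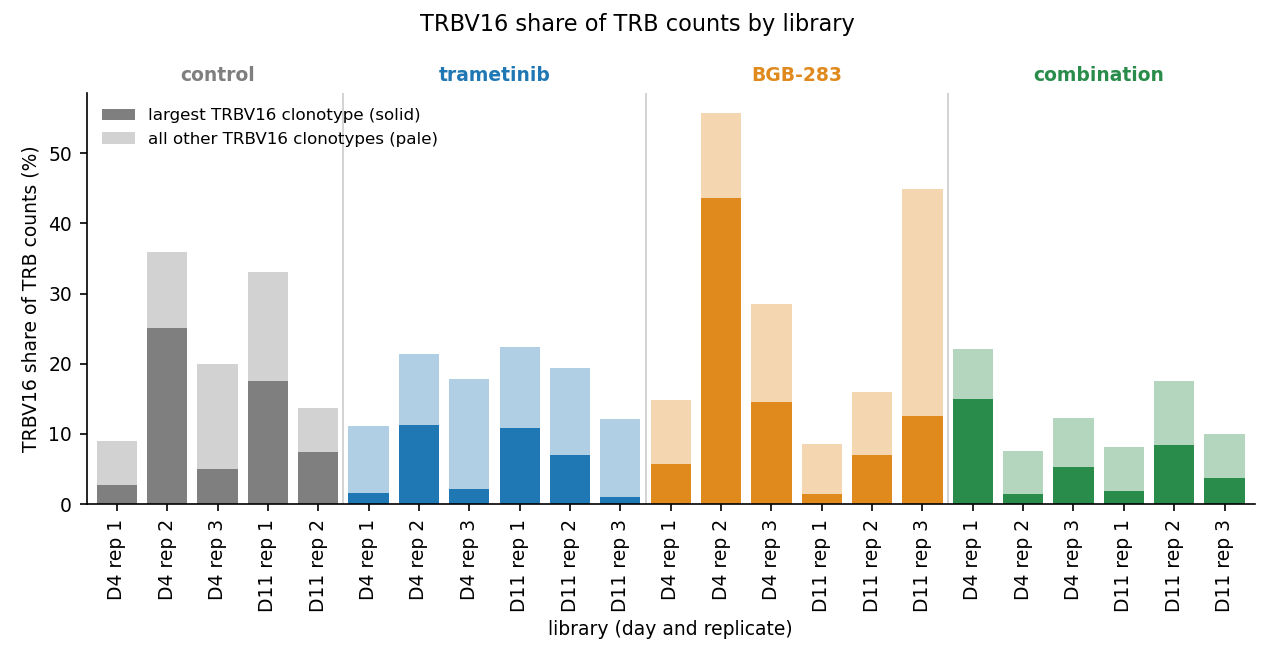
TRBV16 share of TRB counts in percent, 1 bar for each of the 23 libraries, coloured by treatment; the solid part is the largest TRBV16 clonotype of that library and the pale part all others. The 2 tallest bars (55.7% and 44.9%) are BGB-283 libraries, and the solid part of the tallest reaches 43.6%.

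The question asked of these groups was whether either drug, or both together, went with another use of TRBV16. With counts summed by TRBV segment and tested by edgeR's quasi-likelihood method, TRBV16 did not pass in any of the 6 contrasts. It was lower in combination than in BGB-283 libraries by the widest margin, 12.9% ± 5.80 against 28.1% ± 18.7 (SD, n = 6 each; log2 fold change -1.10, SE 0.48, unadjusted p = 0.0283, edgeR adjusted p = 0.446). Against control at 22.3% ± 11.8 (n = 5), the log2 fold change was -0.80 (SE 0.50, edgeR adjusted p = 0.586) for combination. Against the same control it was -0.37 (SE 0.50, edgeR adjusted p = 0.853) for trametinib at 17.4% ± 4.74, and 0.30 (SE 0.50, edgeR adjusted p = 0.709) for BGB-283. These 3 comparisons share the control libraries. Combination against trametinib gave -0.43 (SE 0.47, edgeR adjusted p = 0.882), with the sign turned to 0.10 under TMM factors. D11 against D4 gave -0.13 (SE 0.34, edgeR adjusted p = 1.00).

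None of the 24 TRBV segments passed in these 6 contrasts (0% called), with 0 to 4 segments at an unadjusted p under 0.05 by edgeR and 0 to 2 called by DESeq2. The biological coefficient of variation between libraries of a group was 0.935, a value common to all 24 segments and not that of TRBV16 alone. The widest TRBV16 difference, combination against BGB-283, had an unadjusted edgeR p of 0.0283 and did not pass after adjustment over the segments. No TRBV16 difference between treatments was shown to differ between D4 and D11 either: the 5 interaction terms had edgeR adjusted p-values from 0.762 to 0.985.

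Single clones made up much of what varied. The largest TRBV16 clonotype of a library held 39.2% ± 19.1 (SD, n = 23) of its TRBV16 counts, from 8.47% in trametinib D11 replicate 3 to 78.2% in BGB-283 D4 replicate 2. In 9 of 23 libraries it was also the largest TRB clonotype of all. Without its own largest clonotype, TRBV16 held 6.95% ± 1.18 of TRB counts under combination, 13.9% ± 9.33 under BGB-283 and 11.7% ± 2.20 under trametinib (SD, n = 6 each), with 10.8% ± 4.48 in control (n = 5). BGB-283 D11 replicate 3 stood apart at 32.3%, and its 6 TRBV16 clonotypes of 1% or more together held 41.8% of TRB counts. Control D4 replicate 3 and trametinib D4 replicate 3 had 6 such clonotypes as well, but these held 16.7% and 10.3%. The share of TRBV16 counts held by the largest clonotype passed in none of the 6 contrasts. Its widest difference was -19.1 percentage points for trametinib against control (28.6% ± 19.6 against 46.5% ± 18.4, p = 0.15, adjusted p = 0.79, exact permutation test within days).

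Clone 1 (TRBJ2-3) was the largest, with 43.6% of TRB counts in BGB-283 D4 replicate 2. It was also found in BGB-283 D11 replicate 3 at 2.34%, and was listed at 0 in the other 21 libraries. Clone 2 (TRBJ2-5) held 25.04% in control D4 replicate 2, 1.87% in control D4 replicate 3, 0.163% in combination D11 replicate 3 and 0.00656% in combination D4 replicate 2. Clone 11 (TRBJ2-5) was the TRBV16 clone with substantial shares under different treatments. It held 8.39% in combination D11 replicate 2, 5.27% in combination D4 replicate 3 and 2.72% in control D4 replicate 1. Clone 10 (TRBJ2-7) held 8.47% in BGB-283 D11 replicate 3, with 0.0802% in combination D11 replicate 2 and 0.0373% in control D11 replicate 2. Clone 9 (TRBJ2-5) held 10.9% in trametinib D11 replicate 1 and 0.0915% in replicate 2 of that group. Clone 4 (TRBJ2-7) held 14.99% in combination D4 replicate 1, and its share of 0.00155% in trametinib D4 replicate 3 rested on the lowest value the table lists, a count of 3.

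The other named clones were each found in 1 library. They were clone 3 (TRBJ2-2, 17.6%, control D11 replicate 1), clone 5 (TRBJ2-7, 14.6%, BGB-283 D4 replicate 3), clone 8 (TRBJ2-5, 11.2%, trametinib D4 replicate 2) and clone 12 (TRBJ2-7, 7.40%, control D11 replicate 2). Clone 6 (TRBJ2-2, 12.6%) and clone 7 (TRBJ1-4, 11.5%) both came from BGB-283 D11 replicate 3. Of the 17 TRBV16 clonotypes that reached 5% somewhere, 5 used TRBJ2-5, 5 TRBJ2-7, 3 TRBJ2-3, 2 TRBJ2-2, 1 TRBJ1-1 and 1 TRBJ1-4, and the 5 not numbered here peaked between 5.02% and 7.04%. Whether RNA passed between libraries in handling was not tested; the low shares of clones 2, 4, 9 and 10 outside their main library are given as listed.

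**Figure D2:**
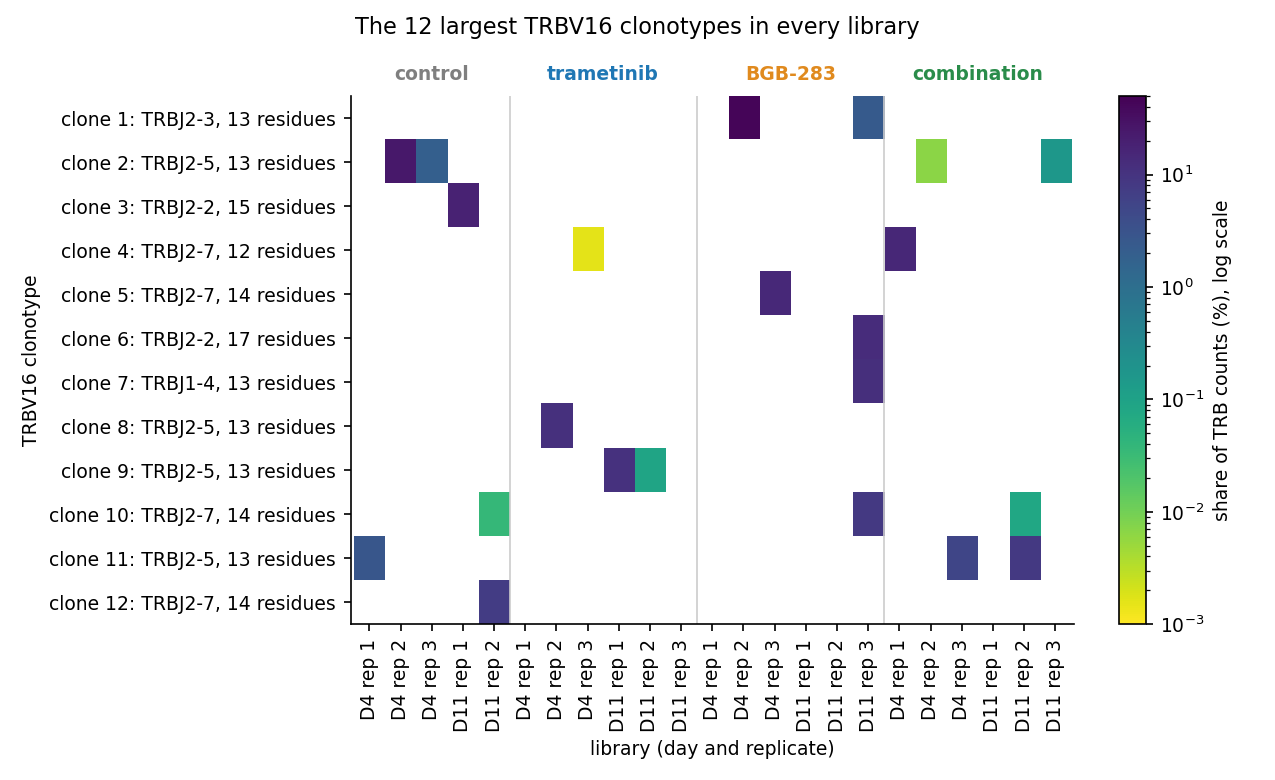
Share of TRB counts (colour, log scale, percent) of the 12 largest TRBV16 clonotypes (rows) in each of the 23 libraries (columns, by treatment); white cells are listed at 0. Each clone has 1 library above 7%, and clone 11 appears in control and combination libraries.

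An ending was shared by 2 of the 4 named TRBJ2-5 clones. Clones 2 and 8 differ by 1 residue before the ending GLQDTQYF, of which QDTQYF is the part that TRBJ2-5 encodes. This ending was chosen after the clones had been seen, so its counts are a description. Of the 197 TRBV16-TRBJ2-5 clonotypes of 13 residues, 16 (8.12%) had it, in 9 libraries, holding 37.1% of the counts of the 197. Of the 866 such clonotypes with another TRBV segment, 4 (0.462%) had it, in 4 libraries, holding 0.0404%.

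Many of the 16 were small neighbours of a large clone. After clonotypes that differ by 1 residue from one at least 100 times larger (same library, V and J) had been merged into it, 5 of the 16 were left. All 4 with another TRBV segment were left. Much of the contrast in clonotype numbers above thus came from such neighbours, and shares after merging were not computed. Another sequence with the ending, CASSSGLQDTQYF, was found in 4 libraries. Its share of TRB counts was highest under combination, 1.67% in D11 replicate 3, and lowest in control D4 replicate 2, 0.0443%. In that control library it is a 1-residue neighbour of clone 2 (25.04%), and the merging rule above joins it to clone 2. With BGB-283 it held 0.729% in replicate 1 of D11 and 0.546% in replicate 1 of D4. With P, A or S before it, the ending occurred under all 4 treatments, above 10% of TRB counts in 1 control library (25.3%) and 1 trametinib library (11.3%). The most it reached under combination was 1.84%, and under BGB-283 0.729%.

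Sharing between libraries was rare. Of the 4950 TRBV16 clonotypes, 4683 (94.6%) were found in 1 library, 208 in 2, 36 in 3, 15 in 4, 4 in 5 and 4 in 6. A share of 5.39% was found in 2 or more libraries, against 3.56% of the 30439 clonotypes with other TRBV segments. Per library, 13.1% ± 3.47 of TRBV16 and 8.82% ± 1.88 of other clonotypes (SD, n = 23) were found elsewhere too, higher for TRBV16 in 22 of 23 libraries. Of 21 segments, 61.9% were called in this comparison, and whether sharing moves with a segment's use, which chose TRBV16, was not tested, so the values are given as a description. Of the public CDR3s, public 1 ranged from 0.0144% to 1.22% of TRB counts over 6 libraries of control, trametinib, BGB-283 and combination. Public 2 to public 4 stayed under 0.27% in each of their 6 libraries. Public 5 was small in 4 libraries (0.00650% to 0.226%) and held 7.02% in BGB-283 D11 replicate 2.

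TRBV16 was also described by clonotype size. Large clonotypes hold much of the counts by which it was chosen, so its share among them is no separate result. It gave 21.7% ± 11.5 (SD, n = 23) of the TRB clonotypes that held 1% or more of counts, 13.8% ± 4.10 of those from 0.1% to 1%, and 16.2% ± 3.16 of those under 0.1%. Each library had 1 to 6 TRBV16 clonotypes of 1% or more, among 5 to 22 such TRB clonotypes. Under 0.1%, where small neighbours of large clones are counted too, the TRBV16 share was 12.9% ± 1.19 under combination, 17.7% ± 1.53 under BGB-283 and 15.5% ± 1.72 under trametinib (n = 6 each), with 19.04% ± 4.06 in control (n = 5).

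Counted by clonotypes, TRBV16 had its lowest mean share under combination, a difference that passed against BGB-283 and control but not against trametinib. The test of this share was run on TRBV16 alone, so whether other segments moved as much was not tested. It made up 12.7%, 10.9% and 13.7% of TRB clonotypes in combination D4 libraries and 12.6%, 13.6% and 14.4% at D11. In BGB-283 libraries it made up 15.6%, 19.5% and 17.8% at D4 and 15.1%, 17.3% and 19.2% at D11, so all 6 lay above all 6 combination libraries. Control libraries were at 14.95%, 17.1% and 18.2% at D4 and 19.1% and 14.3% at D11, the last of which lay below the highest combination library. Trametinib libraries were at 15.01%, 16.1% and 16.5% at D4 and 12.9%, 15.4% and 13.7% at D11. Their mean lay between those of the other drug groups, and their range overlapped both.

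The combination share, 13% ± 1.23 (SD, n = 6), was lower than in BGB-283 at 17.4% ± 1.79 (n = 6; log2 odds -0.50, p = 0.005, the smallest the design allows; adjusted p = 0.03, exact permutation test, two-sided, within days). It was also lower than in control at 16.7% ± 2.08 (n = 5; log2 odds -0.43, p = 0.01, adjusted p = 0.03, exact permutation test). Against trametinib at 14.9% ± 1.42 it did not pass (log2 odds -0.23, adjusted p = 0.08, exact permutation test), nor did trametinib (-0.20, adjusted p = 0.18) or BGB-283 (0.07, adjusted p = 0.672) against control. Within a day, 3 against 3 libraries cannot give a p below 0.1. The combination difference from BGB-283 was -0.59 at D4 and -0.41 at D11, with no overlap on either day. That from control was -0.51 at D4, with no overlap, and -0.35 at D11, with overlap. No difference in clonotype share was shown to differ between days (lowest adjusted p = 0.30 over 5 contrasts, exact permutation test).

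Both calls were lost with a change in how clonotypes were counted. Single-residue neighbours of a 100 times larger clonotype made up 5.66% of TRBV16 clonotypes under combination, 15.6% under BGB-283, 4.83% under trametinib and 12.2% in control, with the most, 42.6%, in BGB-283 D11 replicate 3. With these merged, the log2 odds were -0.31 against BGB-283 and -0.35 against control (adjusted p = 0.075 each, exact permutation test). At an equal 32534 TRB counts a library, both stayed past the threshold (-0.53 and -0.49, adjusted p = 0.015 each, exact permutation test). Without both shallow control libraries the difference from control was -0.35 (adjusted p = 0.15, exact permutation test). Fewer permutations are possible there and in the cases named next, which raises the smallest possible p. Leaving out single libraries ended the call against control in 9 of 23 cases (control D4 replicates 1 to 3, control D11 replicate 1, combination D4 replicates 1 to 3 and combination D11 replicates 1 and 2), and that against BGB-283 in 3 (combination D4 replicate 2 and combination D11 replicates 1 and 2), with adjusted p-values of at most 0.10.

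**Figure D3:**
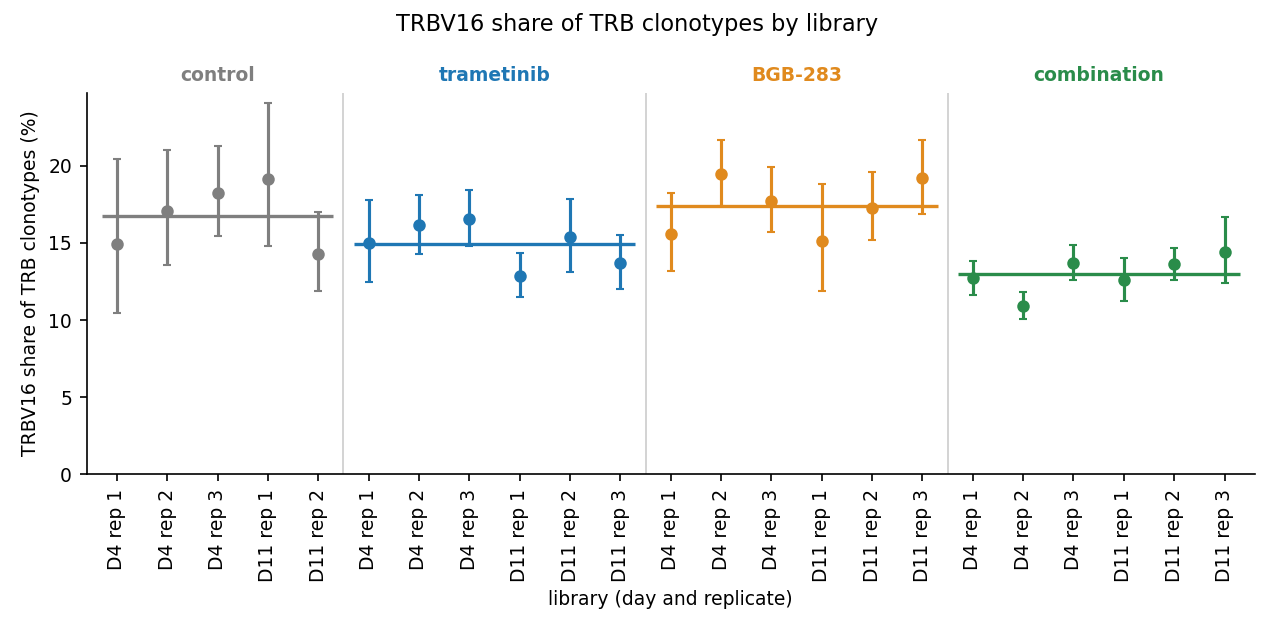
TRBV16 share of TRB clonotypes in percent for each library (points), with the 95% exact binomial interval, which covers counting error only, and the mean of each treatment (horizontal lines). Combination libraries (10.9% to 14.4%) lie below all BGB-283 libraries (15.1% to 19.5%), while the control range (14.3% to 19.1%) touches theirs.

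In number, TRBV16 clonotypes were more plentiful under trametinib and under combination than in control, as TRB clonotypes of other segments were too. At an equal 32534 TRB counts a library was expected to hold 310.3 ± 105 of them under combination, 162 ± 57.2 under BGB-283 and 193 ± 56.6 under trametinib (SD, n = 6 each), with 75.3 ± 33.5 in control (n = 5). Combination differed from control by 2.05 on the log2 scale, trametinib from control by 1.40 (adjusted p = 0.03 each, exact permutation test), and combination from BGB-283 by 0.95 (adjusted p = 0.04, exact permutation test). BGB-283 against control (1.11, adjusted p = 0.0675) and combination against trametinib (0.65, adjusted p = 0.114) did not pass the exact permutation test. The rise was not particular to TRBV16: clonotypes of all other TRBV segments, counted the same way, numbered 2246 ± 892 under combination, 1140 ± 403 under trametinib and 779 ± 234 under BGB-283 (SD, n = 6 each), with 385 ± 192 in control (n = 5). Their log2 differences were 2.54 for combination against control, 1.61 for trametinib against control and 1.47 for combination against BGB-283 (adjusted p = 0.02 each, exact permutation test), each larger than that of TRBV16. A lower combination share thus went with more TRBV16 clonotypes, not fewer. Counts are likely reads with several per molecule, since 3655 entries hold exactly 20 against 804 at 19 and 509 at 21. In estimated molecules (counts divided by 20, rounded up) at equal depth, combination differed from control by 0.75 (adjusted p = 0.075) and from BGB-283 by 0.22 (adjusted p = 0.412, exact permutation tests), so neither passed, and combination against trametinib turned to -0.11. The call against control was also lost without both shallow control libraries (1.59, adjusted p = 0.075), and trametinib against control with it (0.94, adjusted p = 0.142, exact permutation tests). Fewer control libraries allow fewer permutations and so a larger smallest p. How much of these losses came from that was not tested. Leaving out 1 library often ended these calls. It did so for combination and for trametinib against control without any of the same 12 libraries: control D4 replicates 1 and 2, control D11 replicate 1, trametinib D4 replicates 2 and 3, trametinib D11 replicates 1 to 3, combination D4 replicates 2 and 3 and combination D11 replicates 1 and 2. The differences there stayed from 1.81 to 2.28 and from 1.16 to 1.63, with adjusted p-values up to 0.06 and 0.0667. Combination against BGB-283 (0.70 to 1.15, adjusted p up to 0.0975) held without control D4 replicate 3, control D11 replicate 2, trametinib D4 replicate 1, BGB-283 D11 replicate 2 or combination D11 replicate 3, and was lost without each of the other 18. Each of these contrasts uses only the libraries of the treatments it compares. Leaving out a library of another treatment left the difference and unadjusted p unchanged and ended the call only through the adjustment over 6 contrasts.

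TRBV16 was joined to all 12 TRBJ segments. TRBJ2-7 was the most used, with 21.5% ± 4.85 (SD, n = 23) of TRBV16 clonotypes, then TRBJ2-5 (13.3% ± 5.85) and TRBJ2-1 (13.2% ± 4.21). The least used were TRBJ1-6 (1.04% ± 0.874), TRBJ1-5 (1.42% ± 1.10) and TRBJ1-3 (3.94% ± 2.44). By counts the order was another, since large clones weigh there: TRBJ2-5 held 170855, TRBJ2-3 164690 and TRBJ2-7 143922 counts summed over libraries, against 1835 for TRBJ1-6.

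The J partners of TRBV16 were compared with those of all other TRBV segments within each library, each clonotype counted once. TRBJ1-6 stood out as a rare partner: 1.04% of TRBV16 clonotypes against 3.26% ± 0.726 of the others, lower in 23 of 23 libraries (adjusted p = 0.00012, the smallest 100000 paired sign permutations can give here). It was listed at 0 for TRBV16 in all 5 control libraries and in BGB-283 D4 replicate 1, where other segments used it for 2.61% to 4.56% of clonotypes. These libraries held only 32 to 130 TRBV16 clonotypes each, so a rare partner can be missed there. In the other libraries it reached at most 2.73%, in trametinib D4 replicate 1. TRBJ1-5 was lower as well, 1.42% against 2.53% ± 0.629, in 19 of 23 libraries (adjusted p = 0.00156, permutation test). The same test on each of 21 TRBV segments called 14.3% of them for TRBJ1-6 and 14.3% for TRBJ1-5, so few segments departed in these partners. Of the segments called for TRBJ1-6, TRBV3 was lower as well, at 1.02% ± 0.997, while TRBV19 was higher (4.64% ± 2.14). TRBV30, lower at 0.75% in the 10 libraries that could be compared (adjusted p = 0.0701), and TRBV17 at 1.68% (adjusted p = 0.0508) did not pass the permutation test. The other 10 J segments did not pass for TRBV16 (lowest adjusted p = 0.254, permutation test). Their share of segments called was 4.76% for TRBJ2-4, 9.52% for TRBJ1-3, TRBJ1-4, TRBJ2-1, TRBJ2-3 and TRBJ2-5, 14.3% for TRBJ2-2 and 19% for TRBJ1-1, TRBJ1-2 and TRBJ2-7.

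**Figure D4:**
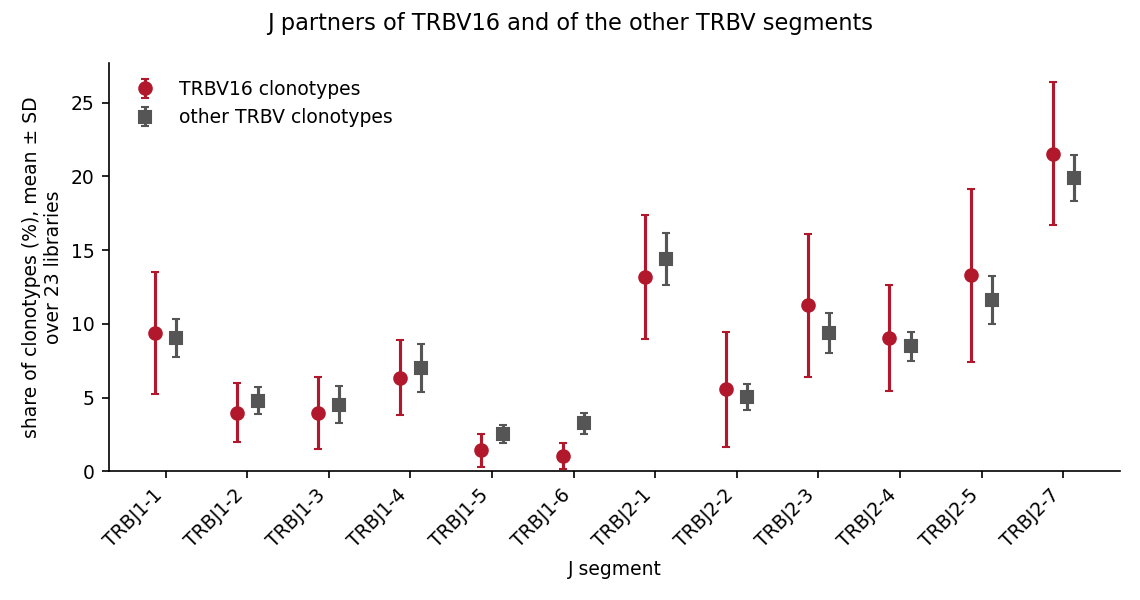
Share of clonotypes (percent, mean and SD over 23 libraries) joined to each of the 12 TRBJ segments, for TRBV16 (circles) and for all other TRBV segments (squares). TRBV16 lies below the others at TRBJ1-5 and TRBJ1-6 (1.04% against 3.26%).

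The TRBJ2 cluster as a whole took 73.9% ± 4.41 of TRBV16 clonotypes and 68.8% ± 2.14 of the others, higher in 19 of 23 libraries (5.03 points, adjusted p = 0.00128, paired permutation test over 23 libraries). Departures of this kind were common, with 52.4% of the 21 segments called. It did not pass when clonotypes were weighted by counts (4.32 points, adjusted p = 0.345, permutation test).

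Between treatments, the TRBJ2 share of TRBV16 clonotypes was 72.4% ± 3.44 under combination, 77.5% ± 1.46 under BGB-283 and 72.6% ± 4.07 under trametinib (SD, n = 6 each), with 72.9% ± 6.43 in control (n = 5). All 6 BGB-283 libraries (75.5% to 80.0%) lay above all 6 combination libraries (65.8% to 75.1%), a difference of -5.19 points for combination (p = 0.005, adjusted p = 0.03, exact permutation test). With single-residue neighbours merged the call was lost (-3.67 points, adjusted p = 0.39, exact permutation test). It also did not pass without entries under 20 counts (-6.36, adjusted p = 0.09), weighted by counts (-6.69, adjusted p = 0.612), or without BGB-283 D11 replicate 1, 2 or 3 (adjusted p = 0.06 each, exact permutation tests). BGB-283 against control was 4.71 points (adjusted p = 0.195, exact permutation test), and the other 4 contrasts lay between -2.26 and -0.22 points.

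No TRBV16-TRBJ pair passed in any contrast when counts of V-J pairs were fitted. Of 264 pairs, 0 were called in each of the 6 contrasts (0%), and of the 12 with TRBV16, 0 to 2 had an unadjusted p under 0.05 by edgeR, while DESeq2 called 1 of 12 in each contrast but combination against trametinib. DESeq2 also called many other pairs. Of the 238 pairs to which it gave an adjusted p, it called 28.6% for combination, 23.5% for trametinib and 26.9% for BGB-283 against control, 5.04% for combination against BGB-283, 2.94% against trametinib, and 22.3% for D11 against D4, so nothing is read from its TRBV16 calls. These were TRBV16-TRBJ1-6 in the 3 contrasts against control and TRBV16-TRBJ2-3 in the other 2. TRBV16-TRBJ1-6 had the lowest p against control, in trametinib (edgeR adjusted p = 0.0845), BGB-283 (edgeR adjusted p = 0.110) and combination (edgeR adjusted p = 0.120). Since it was listed at 0 in all control libraries, which held only 32 to 127 TRBV16 clonotypes each, no fold is given. TRBV16-TRBJ2-3 was lower in combination than in BGB-283 libraries (log2 fold change -2.98, SE 0.90, edgeR adjusted p = 0.249) and at D11 than at D4 (-1.85, SE 0.64, edgeR adjusted p = 0.187); its counts include clone 1. TRBV16-TRBJ2-2 was higher at D11 (2.67, SE 0.82, edgeR adjusted p = 0.154), where clones 3 and 6 lie. TRBV16-TRBJ2-7 differed by 1.91 between BGB-283 and control (SE 0.94, edgeR adjusted p = 0.274). None of these values passed. For the interaction of treatment with day, 1 of 264 pairs was called for BGB-283 against control (0.379%) and 1 for combination against BGB-283 (0.379%), neither with TRBV16.

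TRBV16 CDR3s began in a narrow set of ways. CASSL opened 45.1% of the 4950 clonotypes, CASSP 10.7%, CASSS 10.5% and CASSF 9.66%. Of the 10 large clones printed here, 4 opened with CASSF, 2 with CASSS, 2 with CASSP, 1 with CASSA and 1 with CASAG. CASSL opened none of these 10 but 4 of the 5 public CDR3s. These openings were read from clones already seen and were not tested.

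CDR3s of TRBV16 were slightly longer than those of other segments when each clonotype was counted once. The mean was 14.07 ± 0.201 residues against 13.95 ± 0.10 (SD, n = 23), higher in 18 of 23 libraries (adjusted p = 0.0187, paired permutation test). The same test called 66.7% of 21 segments, so a length apart from the rest was the rule and not particular to TRBV16. Weighted by counts the sign turned (-0.15, adjusted p = 0.345), and without entries under 20 counts the difference did not pass (0.0965, adjusted p = 0.0877, permutation tests). In mean shares, given without a test, the difference was not a plain shift. TRBV16 held less at 14 residues (26.8% against 30.6%, higher in 6 of 23 libraries). It held more at 13 residues (23.6% ± 7.05 against 20.6% ± 2.06, higher in 14 of 23). At 17 residues it held more too (4.55% against 2.51%, higher in 19 of 23 libraries). Small neighbours of large clones are counted in these shares. Of the 17 clonotypes of 5% or more, 7 had 13 residues, 4 had 14, 3 had 15, 2 had 12 and 1 had 17.

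**Figure D5:**
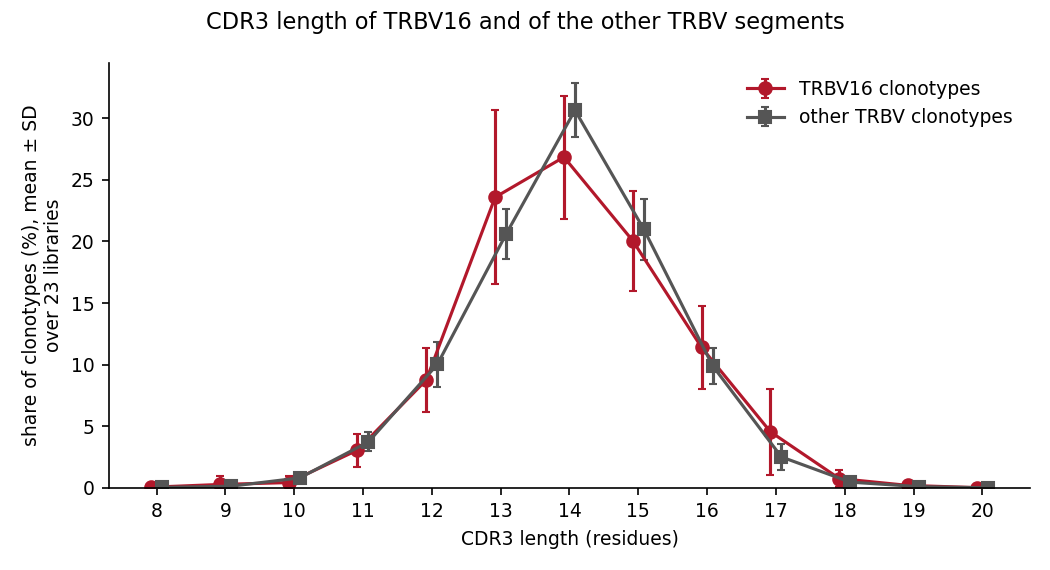
Distribution of CDR3 length in residues (percent of clonotypes, mean and SD over 23 libraries) for TRBV16 (circles) and for all other TRBV segments (squares). TRBV16 lies below the others at 14 residues (26.8% against 30.6%) and above at 13 and 17.

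Between treatments the mean TRBV16 CDR3 length was 14.13 ± 0.0674 residues under combination, 14.06 ± 0.203 under BGB-283 and 14.10 ± 0.0874 under trametinib (SD, n = 6 each), with 13.98 ± 0.372 in control (n = 5). No contrast passed (lowest adjusted p = 0.69, exact permutation test). The control libraries spread most, from 13.61 to 14.54 residues, and they held 32 to 127 TRBV16 clonotypes each, where BGB-283 D11 replicate 1 held 66.

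Motifs left by the D segments were searched as amino acid letters in the middle of the CDR3. GQG or DRG, which Dbeta1 can encode, was found in 3.16% ± 1.5 of TRBV16 clonotypes against 5.84% ± 1.02 of the others, lower in 21 of 23 libraries (adjusted p = 0.000105, paired permutation test). The test called 42.9% of 21 segments for this motif, among them segments with more of it, such as TRBV29 (7.93% ± 2.06). The lower share held in both J clusters, with 6.86% against 8.27% of TRBJ1 and 2.57% against 4.94% of TRBJ2 clonotypes over all libraries, given without a test. GLG or DWG, which Dbeta2 can encode, was found in 9.22% ± 3.18 against 8.68% ± 1.52 (adjusted p = 0.463, permutation test), where 38.1% of segments were called. Weighted by counts, so that large clones weigh more, this difference turned to -4.40 points and passed (adjusted p = 0.0021, permutation test). The weighted test was not run on the other segments, so no share called stands beside it. It also rests on the counts by which TRBV16 was chosen, so the value is given as a description. The motif was found with the TRBJ2 cluster almost alone, in 505 of 3652 TRBV16-TRBJ2 clonotypes (13.8%) and 3 of 1298 TRBV16-TRBJ1 clonotypes (0.231%).

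GTG, which both D segments can encode, did not pass (4.73% ± 2.97 against 4.89% ± 1.07, adjusted p = 0.83, permutation test; 23.8% of segments called). Hydrophobic residues at both CDR3 positions 6 and 7, counted from the first C as 1, are known from other work to favour self-reactive receptors. They were found in 2.39% ± 1.22 of TRBV16 and 1.88% ± 0.516 of other clonotypes, which did not pass (adjusted p = 0.106, permutation test; 33.3% of segments called).

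No other segment rose closely with TRBV16 over the 23 libraries. The segments whose share of TRB counts was most like it were TRBV3 (Spearman's rho 0.205), TRBV26 (0.138), and TRBV12-2 and TRBV1 (0.0682 each). These positive values are weak. The lowest were larger in size, at -0.486 for TRBV19, -0.465 for TRBV15 and TRBV23 and -0.458 for TRBV5. Shares within a library sum to 100%, so a rise in TRBV16 lowers the rest, and all of these values are given as a description.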

How the data were processed

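TCR transcripts were amplified from total RNA with the QIAseq Immune Repertoire RNA kit, per the labels' protocols, in 23 libraries. Whole-number counts, 1 for every combination of V, J and CDR3 in a library, stand in the deposited table with no scaling between libraries. The caller and the filters were not given in the sources used here. GRCh38, a human build, is the genome that the submitters' processing notes list for these mouse samples, and no coordinates are printed.

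The beta-chain entries were summed by segment and by V-J pair. Usage was tested with edgeR 4.0.16 (quasi-likelihood, R 4.3.3) on 24 segments and 264 pairs, with the TRB total as library size, TMM off, filterByExpr, 8 groups and Benjamini-Hochberg adjustment over all segments or pairs. Other measures used exact two-sided permutation tests within days, or within treatments for D11 against D4. They were adjusted over 6 contrasts, with a threshold of 0.05. For log2 odds, 0.5 counts were added. TRBV16 was set against all other TRBV segments within each library by 100000 sign permutations, adjusted over 12 J segments or 7 other features. Scripts were tested on simulated data. Alternatives were DESeq2 1.42.0, TMM, clonotypes counted once or weighted by counts, equal counts, estimated molecules, merged neighbours, removal of low entries, of the largest clonotype, of shallow controls or of single libraries, and the replicate number as a block.

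Segment names were matched to RefSeq (24 of 24 TRBV and 12 of 12 TRBJ). Named clonotypes were those of 5% or more of TRB counts (at most 12) and the 5 in most libraries; named pairs were the 3 most and least used J and, in each contrast discussed, any past the threshold or else the 3 with the smallest p; segments most like TRBV16 were the 3 with the highest Spearman correlation, a tie adding 1. CDR3s of over 14 residues are given by J and length only. The members and lists were chosen with earlier results of these data known.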

Additional observations from a re-analysis of the deposited data

Results flagged for a closer look

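In trametinib libraries, D11 replicate 2 stood apart in mean TRBV16 CDR3 length, with 14.27 residues against 14.01 to 14.09 in the other 5. Its gap to the nearest library was 0.680 of the range of the 6. Of 24 groups of values looked at in this way, chance puts about 1 in 20 past the limit, so 1 is no more than chance gives. No difference between treatments was shown to differ between D4 and D11 in 35 comparisons.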

How the results depend on the processing

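Depth and clone counting limit these results: 2 control libraries had the fewest counts, values below 3 are not listed, and small neighbours of large clones count as clonotypes. Of 1685 values from other settings over 57 results, 1505 kept direction and side of the threshold, most of them of results that had not passed. For the 12 results past the threshold, 250 of 328 values stayed, 77 lost the call and 1 reversed. Leaving out 1 library gave 57 of the lost calls, some of them through the adjustment over contrasts alone. Beyond what is given below, the cause of the others was not tested. Neighbour merging and equal counts were chosen after seeing the data.

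Same-numbered libraries were not shown to deviate together over V-J pairs. In 0 of 28 pairs of groups was each correlation over 0.1 (-0.053 to 0.070 over 1272 V-J pairs of both chains). Over TRBV segments alone, 5 of 28 pairs of groups met this rule, so whether libraries are paired by number was not settled. With a replicate block, calls were lost for clonotype share (combination against control -0.47, against BGB-283 -0.50), TRBJ2 share (combination against BGB-283 -5.19) and clonotype number (combination against control 2.32, trametinib against control 1.41, combination against BGB-283 0.95); fewer permutations are possible there. The TRBJ2 share against control turned to 0.78 for combination and 0.0148 for trametinib.

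TRBV16 usage changed sign with TMM factors for combination against trametinib (0.10), and for D11 against D4 with DESeq2 (0.00456) and without the largest TRB clonotype of each library (0.17). With each clonotype counted once it passed for combination against control (-0.36, edgeR adjusted p = 0.0237) and BGB-283 (-0.44, edgeR adjusted p = 0.000786). DESeq2 called 1 TRBV16-TRBJ pair in each contrast but combination against trametinib, and counting clonotypes once called 1 for combination against BGB-283. The share of all segments or pairs called with clonotypes counted once was not taken, so whether TRBV16 stood apart there was not tested. The interaction with day turned for combination against control with TMM (0.36), DESeq2 (0.69), clonotypes counted once (0.20), no largest clonotype (0.60) and no shallow controls (0.80); for trametinib against control with TMM (0.47) and no shallow controls (1.13); for BGB-283 against control with clonotypes counted once (0.0553), no largest clonotype (0.33) and no shallow controls (0.52); and for combination against trametinib with DESeq2 (0.85), clonotypes counted once (0.32) and no largest clonotype (0.73).

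With neighbours merged, clonotype share lost both calls (-0.35 and -0.31) and turned to -0.0345 for BGB-283 against control. CDR3 length turned to -0.00466 for BGB-283 against control. TRBJ2 share turned for combination (0.96) and trametinib (0.49) against control and combination against trametinib (0.48), and lost its call against BGB-283 (-3.67). Without both shallow control libraries, calls were lost for clonotype share (-0.35) and clonotype number (1.59, 0.94 for trametinib, 0.95 against BGB-283), with fewer permutations possible against control. The last of these has no control library in it and lost its call through the adjustment alone. Without entries under 20 counts, TRBJ2 share turned for combination against control (1.76) and trametinib (3.08) and lost its call against BGB-283 (-6.36), CDR3 length turned for combination against trametinib (-0.00087), clonotype number lost combination against BGB-283 (0.72), and length against other TRBV segments its call (0.0965). At equal counts TRBJ2 share for combination against trametinib was 0.25. In estimated molecules, clonotype number was 0.75 for combination against control, 0.22 against BGB-283, -0.11 against trametinib and 0.0969 for D11 against D4. The comparison with other segments weighted by counts, given next, was run for TRBV16 alone, so no share of segments called stands beside it. Weighted by counts, CDR3 length was -0.51, -0.14 and -0.0438 against control for combination, for trametinib and for BGB-283, -0.37 and -0.46 for combination against trametinib and BGB-283, and -0.15 against other TRBV segments; TRBJ2 share was -6.35 for BGB-283 against control, -6.69 for combination against BGB-283 and 4.32 against other segments; the GLG or DWG share was -4.40; and 4 in place of 2 J segments passed.

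Leaving out 1 library gave these ranges. Clonotype share ran from -0.56 to -0.30 for combination against control, -0.28 to -0.18 against trametinib, -0.55 to -0.45 against BGB-283, -0.0591 to 0.20 for BGB-283 against control and -0.0971 to 0.0302 for D11 against D4. Clonotype number ran from 1.81 to 2.28 for combination, 1.16 to 1.63 for trametinib and 0.86 to 1.35 for BGB-283 against control, 0.47 to 0.86 for combination against trametinib and 0.70 to 1.15 against BGB-283. TRBJ2 share ran from -2.81 to 1.58 and -2.59 to 1.80 for combination and trametinib against control, -1.67 to 1.29 and -6.06 to -4.04 for combination against trametinib and BGB-283, and -3.43 to -1.24 for D11 against D4. CDR3 length ran from -0.0323 to 0.25, -0.0693 to 0.22 and -0.11 to 0.18 for combination, trametinib and BGB-283 against control. The largest clonotype ran from -10.5 to 2.07 for BGB-283 against control and -8.91 to 3.16 for combination against BGB-283. Usage ran from -0.62 to 0.0155 for trametinib and -0.16 to 0.69 for BGB-283 against control, and -0.36 to 0.0171 for D11 against D4. Its interaction ran from -0.93 to 0.43, -0.60 to 0.76 and -1.54 to 0.15 for combination, for trametinib and for BGB-283 against control, -0.72 to 0.17 for combination against trametinib and -0.33 to 1.19 against BGB-283. Called pairs were 0 to 1 for trametinib against control. Against other TRBV segments, GTG ran from -0.69 to 0.0794, hydrophobic residues from 0.39 to 0.64 (passing without control D4 replicate 2), and 2 to 4 J segments passed.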
